A study of Canis lupus familiaris with 6 samples.

Results

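Interleukin-6 and its relatives form a small family of cytokines whose receptors share a signalling chain, and 9 genes of that system were followed here across 6 RNA-seq libraries of MDCK cells. The 9 genes are the ligands IL6, IL11 and LIF, the receptor chains IL6R, IL6ST, LIFR and OSMR, the transcription factor STAT3 and the feedback inhibitor SOCS3. They were taken by gene symbol from the deposited tables, and all 9 were found among 41401 symbols. MDCK is an epithelial line from dog kidney. The libraries came from clone D7 and clone F22, which are clone #1 and clone #2 of genotype PRL2-/-; PRL1+/-, and from wild-type (WT) cells. Each line received PRL1-siRNA (called knockdown below) or control siRNA, with 1 library per line and treatment, and cells were harvested for RNA 18 h after the second transfection. The series asks about a form of cell death that depends on NF-κB and follows a fall in cellular magnesium. PRL1 and PRL2 are phosphatases that bind magnesium transporters of the CNNM family. Each mutant line is 1 clone, and the labels do not say how its alleles were disrupted. By the genotype label, the clones still carry 1 PRL1 allele that the siRNA can act on.

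Ligands of this family bring together receptor chains at the cell surface, and nearly all of the resulting complexes contain gp130, the product of IL6ST. IL-6 binds its own chain IL6R before it engages gp130, whereas LIF pairs gp130 with LIFR, and oncostatin M can pair gp130 with OSMR. JAK kinases bound to these chains phosphorylate STAT3, which enters the nucleus and turns on genes that include SOCS3, whose product binds gp130 and dampens the signal. IL6 is a well known NF-κB target gene, and in kidney epithelium IL-6 and LIF are known as products of injured or inflamed tubules.

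Values are FPKM, fragments scaled to transcript length and to sequencing depth, and the number of fragments behind each value is unknown. Relative depth, read from low values, ran between 0.768 and 1 of the depth of the WT control library, with the knockdown library of clone D7 the shallowest. The targeted transcript PTP4A1, which encodes PRL1, was at 37.8 FPKM in clone D7, 37.8 in clone F22 and 33.1 in WT after knockdown, against 61.7, 69.9 and 63.5 FPKM under control siRNA. PTP4A2, which encodes PRL2, was at 80.4 FPKM in clone D7 and 56.7 in clone F22 under control siRNA, against 72.7 FPKM in WT, and at 69.1 and 48.3 FPKM after knockdown, against 59.0 FPKM in WT. Its mRNA was thus present in both clones labelled PRL2-/-, and these levels do not check that label. Nor do the PTP4A1 levels under control siRNA, below WT in clone D7 and above it in clone F22, check the PRL1+/- part. Kidney epithelial markers were all expressed, with 7 of 7 at a mean of at least 1 FPKM and sums of 1180 to 1780 FPKM after knockdown and 1200 to 1870 under control siRNA. Single kidney markers differed between treatments in every line. PAX8 was at 73.0 FPKM in clone D7, 62.8 in clone F22 and 78.1 in WT after knockdown, against 51.8, 42.9 and 48.4 FPKM under control siRNA, and CDH16 was at 7.82, 7.67 and 5.61 FPKM against 3.13, 4.48 and 3.08 FPKM. CDH1, EPCAM, KRT18 and CLDN4 were lower after knockdown in each line, and the part of these differences in the results was not tested. Of 8 leukocyte markers only CD14 reached that level (mean 5.82 FPKM), and PTPRC and CD3E were at 0 in every library; the summed leukocyte markers ranged from 5.8 to 7.75 FPKM after knockdown and from 5.91 to 6.88 under control siRNA. None of 7 fibroblast or 5 endothelial markers reached a mean of 1 FPKM, with fibroblast sums of 0.205 to 0.475 FPKM after knockdown and 0.147 to 0.327 under control siRNA, and endothelial sums of 0.909 to 1.2 FPKM after knockdown and 0.76 to 1.25 under control siRNA. In RNA from whole cultures, fewer expressing cells and less RNA per cell cannot be told apart, and this holds for every level below.

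Knockdown went with more IL6 and STAT3 mRNA and with less LIFR and IL6ST mRNA in each of the 3 lines, while LIF, OSMR and SOCS3 did not pass the test. The knockdown effect was tested with limma on log2(FPKM + 1), comparing the treatments within each line, with p-values adjusted over the 12125 genes that had a mean of at least 1 FPKM. Of the 9 members, 7 met that level and IL11 and IL6R did not. IL6 rose and STAT3 rose, 2 of 7, where 17.6% of all genes tested were called higher. LIFR fell and IL6ST fell, also 2 of 7, where 21.7% of all genes were called lower. Calls were thus common in these data, and the sizes and the per-library values carry more than the count of calls. The 3 knockdown libraries lay above all 3 control libraries for IL6 and STAT3, as they did for 12.6% of genes tested, and below all of them for LIFR and IL6ST, as for 16.2% of genes tested. Of the genes tested, 31.6% were higher after knockdown in all 3 lines at once, as IL6 and STAT3 were. A further 35.8% were lower in all 3 lines at once, as LIFR and IL6ST were.

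**Figure D1:**
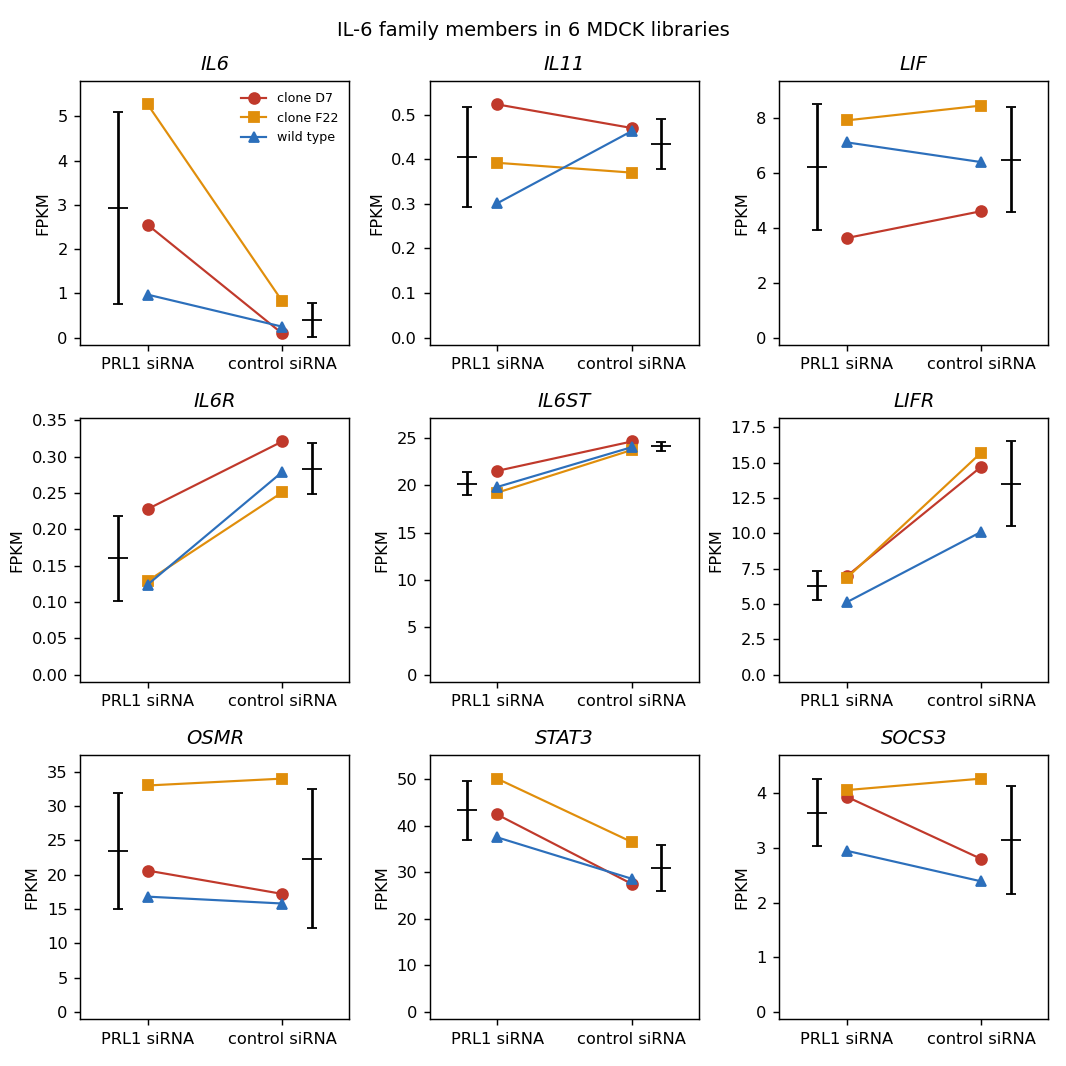
Level of each of the 9 members in FPKM (y axes, linear, each with its own scale) after PRL1 siRNA and under control siRNA, with the libraries of 1 line joined by a line and the mean ± SD over the 3 lines beside them. IL6 and STAT3 slope down toward control siRNA in every line, LIFR, IL6ST and IL6R slope up, and IL11, LIF, OSMR and SOCS3 do not share 1 direction.

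Among the ligands, IL6 had by far the largest relative difference and remained a low-abundance transcript. IL6, the founding ligand of the family, was at 2.55 FPKM in clone D7, 5.27 in clone F22 and 0.972 in WT after knockdown, against 0.0939, 0.825 and 0.248 FPKM under control siRNA. The lowest knockdown value, that of WT, lay just above the highest control value, that of clone F22, so the groups did not overlap. Knockdown over control ratios were 27.1 in clone D7, 6.39 in clone F22 and 3.92 in WT, and the first of these rests on the lowest control value of the set. The rise was 1.38 ± 0.23 log2 units (moderated SE, n = 3 lines, limma, adjusted p = 0.00817), and IL6 ranked 24 from the top of the 12125 genes by this estimate. That SE draws on the variances of other genes as well as on the 3 lines. The lines themselves were uneven, with differences of 1.70 log2 units in clone D7, 1.78 in clone F22 and 0.66 in WT. IL6 reached the mean of 1 FPKM only through its knockdown libraries, whose mean was 2.93 FPKM against 0.389 under control siRNA. Its place in that ranking therefore rests on them. With a minimum mean of 0.1 FPKM, which both groups meet, the adjusted p was 0.0161, and the rank was not computed. The rise was 2.64 log2 units with a pseudocount of 0.1, and the call was lost without the line term (adjusted p = 0.0641), without clone D7 (0.0574) and with no filter (0.12).

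LIF, a ligand that acts through LIFR and gp130, was the most abundant of the 3 ligands in every library and differed more between lines than between treatments. It was at 3.63 FPKM in clone D7, 7.92 in clone F22 and 7.12 in WT after knockdown, against 4.61, 8.46 and 6.40 FPKM under control siRNA. Both clones were lower after knockdown and WT was higher, and the groups overlapped. The estimate was -0.08 ± 0.08 log2 units (limma, adjusted p = 0.501), with a 95% interval of -0.29 to 0.13. Clone F22 held 2.18 times as much LIF mRNA as clone D7 after knockdown and 1.83 times as much under control siRNA.

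IL11, which signals through its own receptor chain and gp130, was near the bottom of the range in every library. Its values were 0.523 FPKM in clone D7, 0.392 in clone F22 and 0.301 in WT after knockdown, against 0.470, 0.370 and 0.463 FPKM under control siRNA. Clones were slightly higher and WT was lower after knockdown. Below the level for the test across genes, an exact sign-flip permutation test over the 3 lines gave p = 1 (two-sided), and 3 lines cannot give a p below 0.25.

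The receptor chains did not move together, and LIFR stood out among them. LIFR, the chain that binds LIF, was at 6.96 FPKM in clone D7, 6.83 in clone F22 and 5.12 in WT after knockdown, against 14.7, 15.7 and 10.1 FPKM under control siRNA. Every knockdown library was below every control library, with ratios of 0.473 in clone D7, 0.433 in clone F22 and 0.507 in WT. LIFR fell by 0.98 ± 0.06 log2 units (SE, n = 3 lines, limma, adjusted p = 0.00127), and it ranked 47 from the bottom of the 12125 genes by this estimate. LIFR stayed past the threshold in all 9 alternative fits that were run, with adjusted p between 0.000845 and 0.0425. The targeted transcript PTP4A1 fell by 0.83 ± 0.05 in the same fit (adjusted p = 0.00127).

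IL6ST, which encodes the shared chain gp130, fell by a smaller amount. It was at 21.5 FPKM in clone D7, 19.2 in clone F22 and 19.8 in WT after knockdown, against 24.6, 23.7 and 24.0 FPKM under control siRNA. The control values of the 3 lines lay within 1 FPKM of each other and all were above the knockdown values. The fall was 0.25 ± 0.04 log2 units (SE, n = 3 lines, limma, adjusted p = 0.00797). IL6ST passed in 6 of the 9 alternative fits and missed the threshold narrowly without the line term (adjusted p = 0.0505), without clone F22 (0.0529) and with no filter (0.0567).

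OSMR, the chain that makes an oncostatin M receptor with gp130, differed mainly between lines. It was at 20.6 FPKM in clone D7, 33.0 in clone F22 and 16.8 in WT after knockdown, against 17.2, 34.0 and 15.8 FPKM under control siRNA. Clone F22 was the highest line under both treatments, at 1.60 times clone D7 after knockdown and 1.98 times under control siRNA. The knockdown estimate was 0.10 ± 0.06 log2 units (limma, adjusted p = 0.26), with a 95% interval of -0.06 to 0.25.

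IL6R, the chain that gives a cell its own response to IL-6, was the least abundant receptor chain by a wide margin. It was at 0.228 FPKM in clone D7, 0.129 in clone F22 and 0.124 in WT after knockdown, against 0.321, 0.251 and 0.279 FPKM under control siRNA. All 3 knockdown values were below all 3 control values. With the minimum mean at 0.1 FPKM the difference was -0.15 ± 0.04 log2 units and did not pass (limma, adjusted p = 0.0696), and the exact sign-flip test gave p = 0.25, the smallest that 3 lines allow. On the FPKM scale, IL6ST was 94.6, 149 and 159 times as high as IL6R in clone D7, clone F22 and WT after knockdown, against 76.8, 94.3 and 86.2 times under control siRNA.

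**Figure D2:**
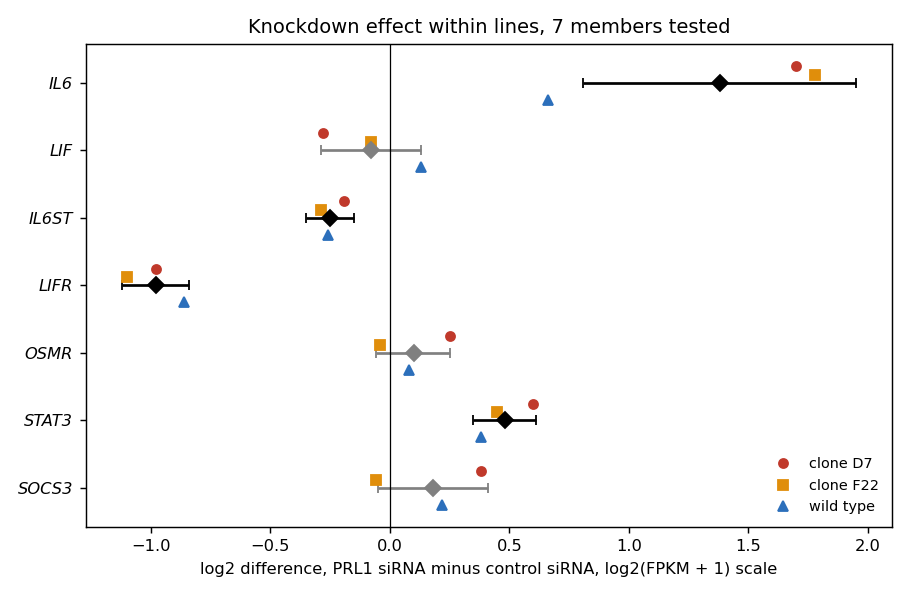
Knockdown effect of the 7 members tested (x axis, difference between PRL1 siRNA and control siRNA on the log2(FPKM + 1) scale). Diamonds with bars are the limma estimates over 3 lines with 95% intervals, black where the adjusted p passed 0.05 and grey where it did not, and coloured points are the lines, which lie on 1 side of 0 for IL6, IL6ST, LIFR and STAT3.

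Ratios among LIFR, OSMR and IL6ST, built from the levels given above, differed between treatments in each line. The ratio of LIFR to OSMR, both on the FPKM scale, was 0.338 in clone D7, 0.207 in clone F22 and 0.305 in WT after knockdown, against 0.856, 0.463 and 0.640 under control siRNA. All 3 knockdown ratios were below the control ratios, although the lines differed in level, with the lowest ratio in clone F22 under both treatments. Relative to IL6ST, LIFR was at 0.323, 0.356 and 0.258 in clone D7, clone F22 and WT after knockdown, against 0.598, 0.665 and 0.421 under control siRNA. OSMR relative to IL6ST was 0.956, 1.72 and 0.846 in the same order after knockdown, against 0.699, 1.44 and 0.658 under control siRNA, higher after knockdown in each line. For each of these 3 ratios the exact two-sided sign-flip test over lines gave p = 0.25, the smallest that 3 lines allow.

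**Figure D3:**
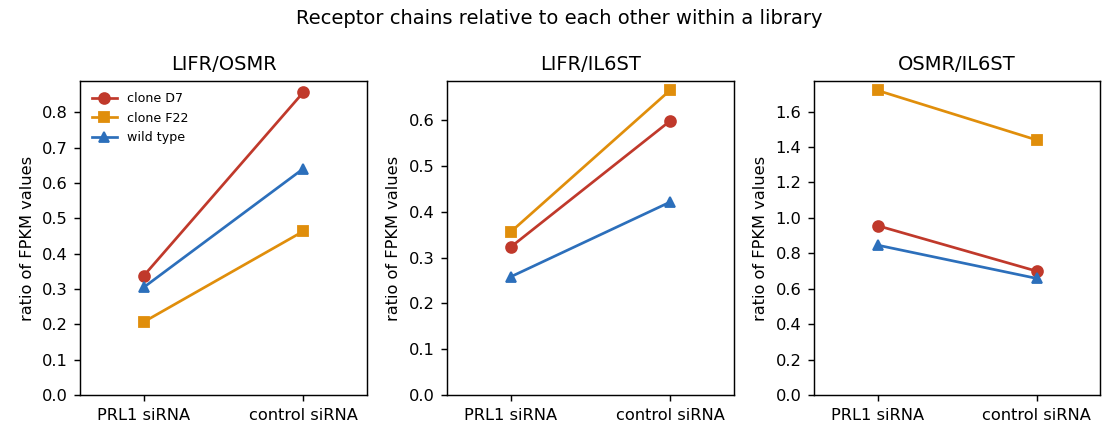
Ratios of FPKM values between receptor chains within each library (y axes, linear from 0) after PRL1 siRNA and under control siRNA, with the libraries of 1 line joined. LIFR relative to OSMR and to IL6ST is lower after knockdown in all 3 lines, and OSMR relative to IL6ST is higher.

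STAT3, the transcription factor downstream of all of these receptors, was the most abundant member in every library and rose after knockdown. It was at 42.4 FPKM in clone D7, 50.1 in clone F22 and 37.5 in WT after knockdown, against 27.5, 36.5 and 28.6 FPKM under control siRNA. The lowest knockdown value, in WT, was close to the highest control value, in clone F22, so the groups were separate by a narrow margin. Each line was higher than its own control, a difference that 1 library per treatment cannot test within a line. The rise was 0.48 ± 0.05 log2 units (SE, n = 3 lines, limma, adjusted p = 0.00274), with ratios of 1.54 in clone D7, 1.37 in clone F22 and 1.31 in WT. The call was lost without the line term (adjusted p = 0.0641) and with no filter (0.0576).

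SOCS3, a target gene and feedback inhibitor of STAT3, did not share a direction across lines. It was at 3.94 FPKM in clone D7, 4.06 in clone F22 and 2.95 in WT after knockdown, against 2.80, 4.27 and 2.39 FPKM under control siRNA. Clone D7 and WT were higher after knockdown and clone F22 was slightly lower, and the groups overlapped. The estimate was 0.18 ± 0.09 log2 units (limma, adjusted p = 0.175), with a 95% interval of -0.05 to 0.41.

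The order of the 9 transcripts changed among the less abundant members. In all 6 libraries STAT3 was first, and IL6ST and OSMR took the next places, with OSMR ahead of IL6ST in both libraries of clone F22. Under control siRNA, the next places went to LIFR, then LIF, then SOCS3 in every line. After knockdown LIFR (6.30 ± 1.03 FPKM, SD, n = 3 lines) and LIF (6.22 ± 2.28) were within the spread of each other, whereas under control siRNA LIFR (13.5 ± 3.01) lay above LIF (6.49 ± 1.93). IL6 was last of the 9 in the control libraries of clone D7 and WT, and after knockdown it was above IL11 and IL6R in all 3 lines.

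Whether the knockdown effect differed between the clones and WT was tested by the interaction of treatment and genotype, with 1 residual degree of freedom. That degree of freedom is the difference between the effects in clones D7 and F22, and WT, a single line, was assumed to vary like them. None of the 7 members passed, and over all genes limma called 1 of 12125, or 0.00825%. That gene was TXNIP (2.27 ± 0.06, adjusted p = 0.0242), named here because it was the single call. IL6 had the largest interaction among the members, at 1.08 ± 0.16 log2 units for the clones minus WT (unadjusted p = 0.00222, adjusted p = 0.401). With a pseudocount of 0.1 the IL6 interaction was 1.53 ± 0.62 log2 units, so its SE depended on the pseudocount. On the log2(FPKM + 1) scale, the IL6 difference between treatments was 1.70 in clone D7, 1.78 in clone F22 and 0.66 in WT. That scale compresses values under 1 FPKM. As knockdown over control ratios, the lines were at 27.1, 6.39 and 3.92 in the same order, with clone F22 nearer to WT than to clone D7. LIF was next, at -0.32 ± 0.12 (adjusted p = 0.495), with 95% limits of -0.64 and 0.01.

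The 2 clones were also compared with WT under control siRNA, where 1 WT library was assumed to vary like the clones. No member passed, and limma called 0% of genes, with 1632 at an unadjusted p under 0.05. LIFR came closest, at 14.7 FPKM in clone D7 and 15.7 in clone F22 against 10.1 FPKM in WT (0.55 ± 0.08 log2 units, adjusted p = 0.25). For OSMR the estimate of 0.59 ± 0.50 (adjusted p = 0.668) came mainly from clone F22, since clone D7 was at 17.2 FPKM and WT at 15.8 FPKM; without the control library of clone F22 the estimate was 0.12. IL6ST was nearly level across the lines under control siRNA, with a difference of 0.01 ± 0.10 (adjusted p = 0.984).

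Beyond the 9 members, 67 genes of the same pathway were taken as 6 lists; 65 of them were matched in the tables, and 51 had a mean of at least 1 FPKM. Of these 51, 9 rose and 12 fell, so 41.2% were called, close to the 39.3% called among all genes tested (17.6% higher and 21.7% lower), against which the counts of the single lists are to be read. Their median was 0.03 log2 units, beside -0.01 over all genes tested. Without the line term, 6 of the 21 calls passed, those of JAK1, PTPN11, GAB1, PTPN2, VEGFA and MUC1.

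Among 7 other ligand genes, 3 were tested, 1 rose and 0 fell. CTF1, the gene of cardiotrophin-1, was at 4.62, 4.47 and 5.09 FPKM in clone D7, clone F22 and WT after knockdown, against 3.88, 2.79 and 3.11 FPKM under control siRNA (0.43 ± 0.09 log2 units, limma, adjusted p = 0.0134; 0.0646 without the line term). CLCF1, the gene of cardiotrophin-like cytokine, did not pass (0.19 ± 0.08, adjusted p = 0.108). The ligand genes OSM and IL31 were listed at 0 in every library, and IL27 and EBI3 did not exceed 0.0571 FPKM.

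Of the 4 other receptor chains, 3 were tested, and 1 fell. IL31RA, which pairs with OSMR to bind IL-31, was at 3.03 FPKM in clone D7, 2.90 in clone F22 and 1.84 in WT after knockdown, against 3.57, 3.85 and 2.41 FPKM under control siRNA (-0.25 ± 0.06, limma, adjusted p = 0.0246; 0.0641 without the line term). The groups overlapped because WT was lower than the clones under both treatments. IL11RA, the chain for IL-11, was at 1.71 to 2.30 FPKM over the 6 libraries and did not pass (adjusted p = 0.314).

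Among 9 tested kinases and adaptors, 2 rose and 2 fell, or 44.4% called where all genes gave 39.3%. JAK1, the main kinase on gp130, was at 59.6 FPKM in clone D7, 59.7 in clone F22 and 54.1 in WT after knockdown, against 44.8, 46.4 and 43.2 FPKM under control siRNA (0.36 ± 0.04 log2 units, limma, adjusted p = 0.00225). PTPN11, which encodes the phosphatase SHP2 that docks on gp130, was at 22.4, 20.9 and 22.6 FPKM after knockdown in the same order, against 30.6, 29.0 and 29.9 FPKM (-0.42 ± 0.04, adjusted p = 0.00175). Both genes were separate between treatments and nearly equal across lines. The docking protein gene GAB1 fell by 0.37 ± 0.05 (adjusted p = 0.00473) and the adaptor gene GRB2 rose by 0.17 ± 0.03 (adjusted p = 0.0152; 0.157 without the line term). JAK2 narrowly missed the threshold (0.27 ± 0.09, adjusted p = 0.0521).

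Among 15 tested inhibitors and sheddases, 1 rose and 3 fell, or 26.7% called where all genes gave 39.3%. PTPN2, a phosphatase that acts on JAK and STAT proteins, was at 20.9 FPKM in clone D7, 16.7 in clone F22 and 20.2 in WT after knockdown, against 28.5, 24.9 and 29.3 FPKM under control siRNA (-0.50 ± 0.04 log2 units, limma, adjusted p = 0.00165). Its relative PTPN1 fell by 0.24 ± 0.04 and the sheddase gene ADAM10 fell by 0.19 ± 0.04 (adjusted p = 0.0103 and 0.0118; 0.0654 and 0.483 without the line term). PIAS3, an inhibitor of STAT3, rose by 0.23 ± 0.04 (adjusted p = 0.0095; 0.0673 without the line term). No other gene of the SOCS family passed, and SOCS1 did not exceed 0.155 FPKM.

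Of 4 other STAT genes tested, STAT6 rose by 0.12 ± 0.04 log2 units (limma, adjusted p = 0.047; 0.203 without the line term), and the other 3 did not pass.

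Known STAT3 target genes were called in both directions, as genes in general were. Of 17 tested, 4 rose and 6 fell, or 58.8% called where all genes gave 39.3%, with a median of 0.02 log2 units beside -0.01 over all genes. MYC, a growth regulator, was at 35.1 FPKM in clone D7, 45.2 in clone F22 and 21.3 in WT after knockdown, against 50.7, 64.2 and 32.9 FPKM under control siRNA (-0.54 ± 0.04, limma, adjusted p = 0.00147; 0.053 without the line term). VEGFA, an angiogenic factor gene, was at 9.22, 9.09 and 9.30 FPKM after knockdown in the same order, against 13.2, 13.8 and 13.4 FPKM (-0.50 ± 0.04, adjusted p = 0.00165). MYC was lower in each line but overlapped between treatments because the lines differ in level, while VEGFA was nearly the same in every line of a treatment. The AP-1 gene JUNB rose by 0.31 ± 0.06 (adjusted p = 0.0122; 0.0872 without the line term) and the AP-1 gene FOSL1 fell by 0.23 ± 0.06 (adjusted p = 0.0238; 0.247 without the line term). The acute-phase genes FGB and SERPINA3 and the metabolic target NNMT were listed at 0 in every library. Many of these genes are also controlled by other factors, and whether STAT3 took part was not tested.

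**Figure D4:**
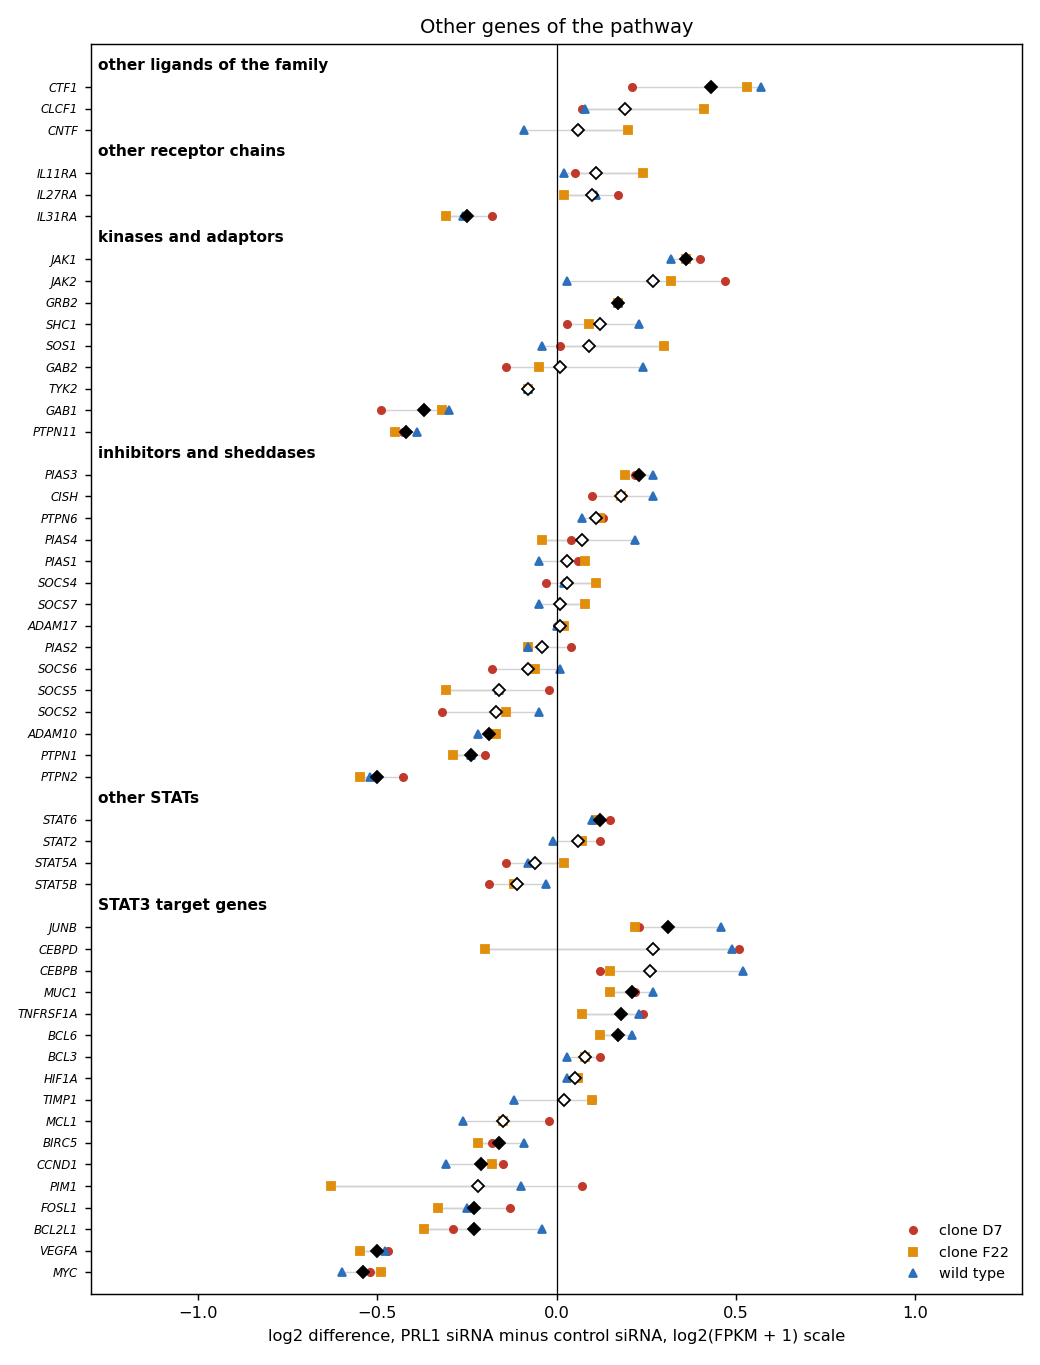
Knockdown effect of the 51 other pathway genes tested, by list (x axis, difference between PRL1 siRNA and control siRNA on the log2(FPKM + 1) scale). Diamonds are limma estimates, filled where the adjusted p passed 0.05, and coloured points are the 3 lines; CTF1 is the highest filled diamond, and MYC, VEGFA and PTPN2 are the lowest.

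The genes whose pattern was most like that of a member were read from Pearson's r of log2(FPKM + 1) over the 6 libraries, among 10529 named genes. These r values are descriptions over 6 libraries that share lines and treatments. For IL6 they were SNX16, a sorting nexin gene (r = 0.998), DSC2, which encodes the desmosomal cadherin desmocollin-2 (0.997), and IWS1, a transcription elongation gene (0.992), and 114 genes had an r of at least 0.95. DSC2 was at 65.1 FPKM in clone D7, 72.0 in clone F22 and 59.8 in WT after knockdown, against 54.8, 58.1 and 55.3 FPKM under control siRNA, so it shared the order of IL6 over libraries at a much smaller relative range. For LIF they were P3H1 (0.992), SLC7A8 (0.986) and PGGHG (0.985), for SOCS3 they were ZP2 (0.993), TRIM8 (0.981) and PP2D1 (0.977), and for IL11 they were MFAP1 (0.989), MED6 (0.976) and CNIH1 (0.972).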

How the data were processed

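RNA-seq libraries of MDCK cells were made with a stranded mRNA kit, per the labels' protocols, 1 for each of 3 lines and 2 treatments. The deposited values are FPKM as computed by the authors, with a single value for a gene symbol in a library. HISAT2 2.1.0, Cufflinks 2.2.1 and Cuffdiff are the tools listed by the submitters' processing notes. Genome build, annotation and strand setting were not given in the sources used here. Overlapping and antisense genes may share fragments. Of 41401 symbols, 38797 matched RefSeq names of assembly UU_Cfam_GSD_1.0, used for names and gene order only.

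The FPKM tables hold no counts, so the depth is unknown and intervals for counting error were not computed. Relative depth came from the most common ratio between libraries among genes below 0.1 FPKM. Genes whose mean reached 1 FPKM, 12125 in all, were tested on the log2(FPKM + 1) scale with limma 3.58.1 (R 4.3.3); this scale understates fold changes of low genes. Moderated variances followed an intensity trend, and adjustment over all genes was by Benjamini-Hochberg at 0.05. The knockdown fit had line and treatment as terms and 2 residual degrees of freedom. Pairing by line comes from the labels, which give each library its clone; deviations of the 2 clones from their group means correlated between treatments with r = 0.595. The genotype comparison used 4 groups without a line term. The lines were not stated to be repeated cultures, and the p-values therefore reflect spread between these lines, which may be technical, together with variances borrowed from other genes. Every SE given with a limma estimate is moderated in this way. In the knockdown fit the part borrowed from other genes counted as 3.58 degrees of freedom beside the 2 residual ones. The procedure was tested on simulated data with equal noise for every gene and effects larger than the members' estimates in the fit reported. It therefore does not show how well smaller effects are recovered. Some genes of the pathway lists are not reported here.

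The members and gene lists were chosen with earlier results of these data known. Of each list, up to 4 genes that passed were to be named, by size of change, besides 3 genes most like IL6, IL11, LIF and SOCS3; further genes named, such as CLCF1, IL11RA, JAK2 and MUC1, were chosen after their values were seen. Alternatives were another pseudocount, other filters, another scaling, no trend, no line term and leaving out lines. Sequences of the members were not used here.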

Additional observations from a re-analysis of the deposited data

Results flagged for a closer look

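IL11 was higher after knockdown in both clones and lower in WT: the log2 difference was 0.05 in clone D7 and 0.02 in clone F22, against -0.17 in WT. What drew attention was that WT moved opposite to both clones, a rule applied only to members outside the test. LIF, which was tested, had the same pattern, at -0.28 in clone D7, -0.08 in clone F22 and 0.13 in WT. IL11 was below a mean of 1 FPKM and so outside the test of the difference between genotypes. With no filter, the clones minus WT difference in effect was 0.21 ± 0.03 log2 units and did not pass (limma, adjusted p = 0.471). Every library held between 0.301 and 0.523 FPKM.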

How the results depend on the processing

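The fit with the line as replicate block called 2130 genes higher and 2632 lower; with no replicate block the counts were 694 and 1016, and with no filter, over 27931 genes, they were 451 and 728. Leaving out 1 line gave 749 to 1739 genes higher and 960 to 2298 lower; the lowest counts came without clone D7, and without clone F22 they were 1103 and 1318. For the members' knockdown effect, 54 of 63 alternative values kept direction and side of the threshold, 8 missed the threshold (3 each for IL6 and IL6ST, 2 for STAT3, 0 for LIFR) and LIF changed sign, to 0.02, without clone D7 (-0.18 without WT). Of 21 calls on other pathway genes, 6 passed without the block, 7 with no filter, 7 without clone D7, 10 without clone F22 and 15 without WT, and 0 changed direction. For the interaction, genes higher numbered 0 with no filter, 0 with no replicate block and 7 with no trend, and genes lower numbered 1 with a pseudocount of 0.1. For clones against WT, no filter gave 6 genes higher and 159 lower and no trend gave 4 lower, where the fit reported had 0. There IL6ST changed sign with median ratio scaling (-0.03). Without the control library of 1 clone, sign changed within ranges of -0.02 to 0.03 for IL6ST and -0.4 to 0.36 for LIF (IL6ST at -0.02 and LIF at 0.36 without clone D7), and -0.19 to 0.55 for IL6 and -0.06 to 0.34 for STAT3 (the low ends without clone F22). The clones were left out there by their control library alone, since leaving out both libraries of a clone leaves no residual degree of freedom. Causes were not tested. The number of fragments behind each value is unknown, so counting error was not assessed.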

Other observations

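The ratio of LIF to IL6 was lower after knockdown in each line, while LIF itself did not pass. Under control siRNA it rests on IL6 values of only 0.0939 FPKM in clone D7, 0.825 in clone F22 and 0.248 in WT. On the FPKM scale LIF was 1.42 times IL6 in clone D7, 1.5 times in clone F22 and 7.32 times in WT after knockdown, against 49.1, 10.3 and 25.8 times under control siRNA. STAT3 was 10.8, 12.3 and 12.7 times SOCS3 in clone D7, clone F22 and WT after knockdown. Under control siRNA it was 9.81, 8.55 and 12 times SOCS3, lower in each line and least so in WT. For LIF to IL6 and for STAT3 to SOCS3 the exact two-sided sign-flip test over lines gave p = 0.25, the smallest that 3 lines allow.

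Several genes of the family are neighbours in the RefSeq assembly, with 0 protein-coding genes between them. LIFR and OSMR lie side by side, and LIFR fell by 0.98 log2 units while OSMR did not pass (0.10). IL6ST and IL31RA lie side by side, and each fell by 0.25 on the log2(FPKM + 1) scale. With a pseudocount of 0.1 the estimates were -0.26 for IL6ST and -0.33 for IL31RA. Without the line term neither passed (limma, adjusted p = 0.0505 and 0.0641). LIF lies beside OSM, which was listed at 0 in every library. STAT3 lies beside STAT5A, which did not pass (-0.06).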
